A study of Heterocephalus glaber with 3 samples.

Results

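The FLT3-selected cells are 1053 of the 25044 cells that passed quality control in tumours taken from the lungs of 3 animals of the naked mole-rat, Heterocephalus glaber. A cell was taken when it had at least 1 unique molecular identifier (UMI, 1 counted RNA molecule) of FLT3 and when at least 1 more gene was seen out of XCR1, CLEC9A, BATF3, ZBTB46, CCR7, FSCN1 and CLEC10A. Cells with 4 or more CCL17 UMIs per 10000, 4 or more RETN, 10 or more GPNMB or 5 or more of CD3D, CD3E and CD3G summed were left out, as were cells with under 1000 UMIs, under 500 genes or 20% or more of their UMIs in 13 mitochondrial genes. Replicates 1, 2 and 3 held 365, 438 and 250 such cells, which was 4.52%, 4.86% and 3.14% of their cells (mean 4.17% ± 0.908, SD, n = 3).

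The 3 animals form 1 group, with no untreated animal, healthy lung or second genotype analysed here. All of them received an adenovirus carrying CRISPR tools, whose labelled edits include an inversion of Eml4-Alk and loss of Rb, and their lungs were taken after 15 weeks. Tumours were separated from the surrounding lung by hand and dissociated, so the suspensions may also hold lung and blood cells. RNA was counted with a droplet assay that reads the 3' ends of transcripts. All comparisons below are therefore between kinds of cells within the same animals.

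Conventional dendritic cells take up antigen in tissue, carry it to lymph nodes and present it to T cells. Their precursors and mature forms depend on the cytokine receptor FLT3. In mouse and human, the type 1 form carries XCR1 and CLEC9A, depends on IRF8 and BATF3 and presents captured antigen on MHC class I to CD8 T cells, while the type 2 form depends on IRF4 and carries CLEC10A in human. Either form can mature, when it turns on CCR7, FSCN1 and costimulatory genes.

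The libraries held between 9500 and 10000 barcodes and between 76093932 and 91949365 UMIs each. The median FLT3-selected cell had 10541 UMIs and 2757 genes. FLT3-selected cells were deeper than the animals' cells at large, whose medians were 5033, 5194 and 8128 UMIs. Pairs of libraries shared 21 to 31 cell barcodes, none with an equal UMI total. A doublet caller with its automatic threshold marked 1 cell in 25044, so it had not worked, and no doublets were removed in the values below. Leaving out the 445 cells with a doublet score of 0.2 or more moved no count of called genes by over 1.5 times. Counts without cells that held UMIs of other lineages are given beside each comparison where they moved by more than that.

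Of the 7 further genes of the rule, 5 have a symbol in the files. BATF3 and CLEC10A have none and were not analysed here. Most FLT3-selected cells entered through FSCN1, the actin-bundling protein fascin: it was seen in 874 cells (83.0%) and was the only further gene in 639 (60.7%). CLEC9A, a receptor for dead-cell actin, was seen in 233 cells (22.1%), and XCR1, the receptor of the chemokine XCL1, in 79 (7.5%). CCR7, the receptor that guides dendritic cells to lymph nodes, was seen in 122 cells. ZBTB46, a transcription factor of the conventional dendritic lineage in mouse, was seen in 26 (2.47%). FLT3 itself rested on 1 UMI in 444 cells and on 5 or more in 196.

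Several of these genes were also seen in lymphocytes, whose cells here were named by CD3 genes (6608 cells, median 2865 UMIs) or CD79A (1095 cells, median 1864 UMIs). FLT3 was seen in 5.34% of T cells and 2.92% of B cells. Among all 25044 cells it was seen in 4269, and 24.7% of these were FLT3-selected (30.5%, 34.0% and 14.0% by animal). FSCN1 was seen in 26.8% of T cells, and after every cell was thinned to 2000 UMIs in 30.3% of FLT3-selected cells and 16.4% of T cells. CCR7 did not stand above the lymphocytes: at that depth it was seen in 4.88% of FLT3-selected cells, 8.25% of T cells and 13.3% of B cells. CLEC9A did stand above them, at 11.6% of FLT3-selected cells, 0.197% of T cells and 0.226% of B cells. XCR1 was seen in 1 of 6608 T cells. ZBTB46 at that depth was seen in 0.383% of FLT3-selected cells, 0.138% of T cells and 0.452% of B cells, so it did not mark them.

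The label of conventional dendritic cells is kept for the cells with XCR1 or CLEC9A seen. Their macrophage and fibroblast markers summed to less than in the rest, as given below. XCR1 and CLEC9A were both seen in 27 of them. ZBTB46 had 2 UMIs in the 111 of them without CCR7 or FSCN1 and 7 in the 174 with either. For the rest, called here the other FLT3-selected cells, the markers are mixed, and no cell type name is given to them. The 285 XCR1/CLEC9A cells (152, 68 and 65 by animal) had FLT3 at 353, 368 and 355 CPM, each gene's UMIs in every 1000000 UMIs of the cells summed. The other 768 FLT3-selected cells had 137, 174 and 131 CPM. FLT3, XCR1, CLEC9A and ZBTB46 are genes of the rule, so those values are a description and no test was made. FLT3 and ZBTB46 summed to 175, 68.1 and 178 CPM in the CCL17-high cells that the rule leaves out, which FLT3 did not choose. In the other FLT3-selected cells they summed to 138, 176 and 133 CPM. The summed level of the 8 measured macrophage markers was 518 to 673 CPM in XCR1/CLEC9A cells, where MARCO was at 0. In the other FLT3-selected cells it was 1770 to 1842 CPM, and in the CSF1R phagocytes compared further on, which were chosen by some of these markers, 3698 to 4968 CPM. It was no lower in the CCL17-high cells that the rule leaves out, at 2034 to 2261 CPM. The 3 measured markers of mature dendritic cells, some of which are genes of the rule, summed to 367 to 1097 CPM in the 113 cells with CCR7 and neither XCR1 nor CLEC9A, 222 to 341 CPM in the FSCN1-only cells and 148 to 195 CPM in XCR1/CLEC9A cells. The 6 fibroblast markers summed to 85.8 to 592 CPM in XCR1/CLEC9A cells and 1165 to 3116 CPM in the other FLT3-selected cells. The 4 measured epithelial markers reached 2963 CPM in the other FLT3-selected cells of replicate 1, nearly all of it the surfactant gene SFTPC at 2927 CPM, and lay at 81.9 and 158 CPM in replicates 2 and 3.

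**Figure D1:**
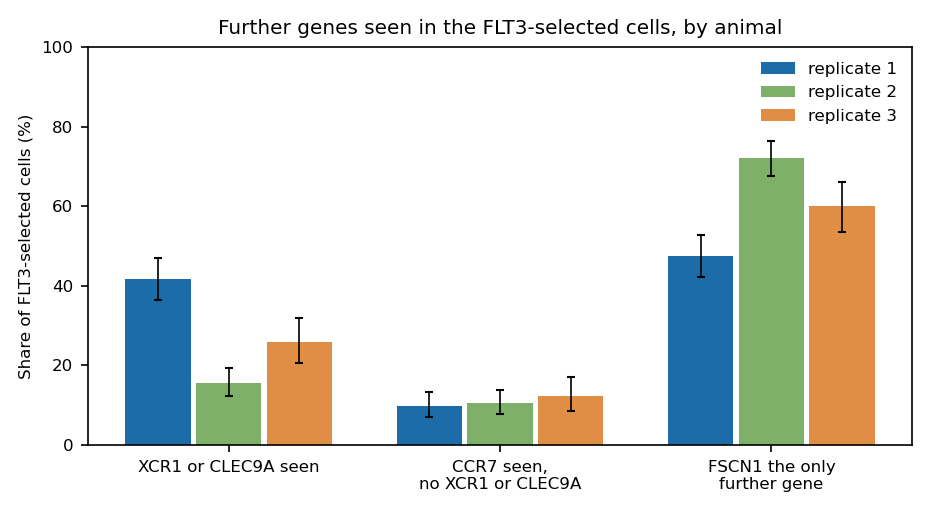
Share of the FLT3-selected cells of each animal (vertical axis, %) with XCR1 or CLEC9A seen, with CCR7 seen but neither of those, and with FSCN1 as the only further gene. Bars are single animals and error bars are exact 95% binomial intervals. XCR1/CLEC9A cells were 41.6%, 15.5% and 26% of the FLT3-selected cells, and FSCN1-only cells 47.4%, 72.1% and 60.0%.

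The make-up of the FLT3-selected cells differed between animals beyond counting error. XCR1/CLEC9A cells were 41.6% (exact 95% interval 36.5 to 46.9) of them in replicate 1, 15.5% (12.3 to 19.3) in replicate 2 and 26% (20.7 to 31.9) in replicate 3. Cells with CCR7 and neither XCR1 nor CLEC9A were a steadier 9.86%, 10.5% and 12.4%. The intervals cover counting error only, and all 3 animals carry the same label, so no cause of the spread was tested. Another 126 cells had XCR1 or CLEC9A but no FLT3 UMI.

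With the cells of all animals pooled, cells with more FLT3 UMIs had more of the type 1 genes, though not in even steps. FLT3, XCR1 and CLEC9A are genes of the rule, so their relation within the selected cells is a description only. No test was made, and the spread between animals was not assessed for the values by FLT3 UMIs. Cells with 1 FLT3 UMI had XCR1 or CLEC9A in 15.5% and IRF8 at 353 CPM, and cells with 5 or more had them in 42.9% and IRF8 at 1752 CPM. The median total was 12350 UMIs in the first and 10956 in the second, so the cells richer in FLT3 were not deeper. The share with the macrophage gene MRC1 was 59.5% at 1 FLT3 UMI and 52.0% at 5 or more. Cells outside the rule were read without its upper limits. Those with XCR1 or CLEC9A and no FLT3 UMI had IRF8 at 738, 346 and 1022 CPM by animal. The 99 of them within the upper limits had 770 CPM. Cells with FLT3 and no further gene (2830 cells, limits not applied) had 299, 610 and 214 CPM. At the limits on other genes, the 39 cells just inside the CD3 limit had IRF8 at 659 CPM and the 33 just outside it 1036 CPM, with XCR1 or CLEC9A in 17.9% and 30.3%. At the RETN limit IRF8 was at 318 CPM in the 36 cells inside and 175 CPM in the 32 outside, at the GPNMB limit at 236 CPM in 47 and 253.5 CPM in 24, and at the CCL17 limit at 353 CPM in 9 and 441 CPM in 16.

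The XCR1/CLEC9A cells had higher levels of type 1 dendritic genes than the other FLT3-selected cells. This split of the FLT3-selected cells was chosen after their values were seen. UMIs were summed per animal and kind of cell and tested with edgeR, with the animal as a block and Benjamini-Hochberg adjustment over all 9266 genes tested. Of these genes, 963 (10.4%) were higher and 1047 (11.3%) lower in the XCR1/CLEC9A cells at an adjusted p under 0.05, which is 21.7% of the genes tested in all. Without cells that held other lineages 703 of 7411 genes tested were called, and without replicate 1 471 of 9119. The genes of the rule were not tested. XCR1 and CLEC9A are on the type 1 list and chose the XCR1/CLEC9A cells, so that list's direction is not independent of the split. The same holds for the other splits by these genes.

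Of the 14 type 1 genes listed, 8 were tested and 6 were higher, with none lower (median log2 fold change 1.89, against -0.004 over all genes tested). IRF8, the transcription factor that type 1 cells depend on in mouse, had 2607, 2109 and 2292 CPM in the XCR1/CLEC9A cells of replicates 1 to 3, against 357, 663 and 221 CPM in the other FLT3-selected cells. Every animal's XCR1/CLEC9A cells lay above every animal's other cells (log2 fold change 2.66 ± 0.30, SE, edgeR adjusted p = 0.0011). WDFY4, which mouse type 1 cells need to present cell-bound antigen on MHC class I, had 166, 280 and 219 CPM, against 39.0, 89.7 and 36.4 CPM (2.10 ± 0.19, adjusted p = 0.00063). RAB7B, a GTPase of late endosomes, had 281, 280 and 305 CPM, against 60.9, 93.3 and 76.1 CPM (1.95 ± 0.15, adjusted p = 0.00054). Neither gene's groups overlapped. TLR3, the sensor of double-stranded RNA, had 91.3, 49.1 and 31.9 CPM, against 23.0, 19.3 and 6.01 CPM (1.83 ± 0.23, adjusted p = 0.0015). TLR3 was thus the more variable between animals, although the groups again did not overlap. SNX22 (2.83 ± 0.38) and ID2, a transcriptional inhibitor needed for type 1 cells in mouse (0.82 ± 0.11), were also higher (edgeR adjusted p = 0.002 for both). Outside the list, C1orf54, a marker of human type 1 cells, had 533, 543 and 415 CPM, against 128, 190 and 42.8 CPM (2.25 ± 0.29, edgeR adjusted p = 0.0019). Of 8 genes listed for conventional dendritic cells of any type, 3 were tested, and 1 was higher with none lower (median 0.07).

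Of 13 transcription factors of dendritic cell development tested, 3 were higher (IRF8, BCL6 and ID2), 2 lower (ZEB2 and MAF) and the other 8 did not pass (median log2 fold change -0.23). ZEB2, which in mouse represses ID2 and is low in type 1 cells, had 6.81, 15.2 and 12.0 CPM in XCR1/CLEC9A cells, against 68.7, 87.7 and 79.2 CPM in the other FLT3-selected cells (log2 fold change -2.84 ± 0.23, edgeR adjusted p = 0.00054). It was lower in all 3 animals and the groups did not overlap. MAF, a transcription factor of macrophages, was lower (-1.72 ± 0.28, adjusted p = 0.0043) and BCL6 higher (1.20 ± 0.17, adjusted p = 0.0023). Of genes from other lists, CSF1R, the macrophage growth factor receptor, had 22.5, 37.5 and 37.9 CPM, against 80.2, 127 and 88.8 CPM (-1.62 ± 0.18, adjusted p = 0.001). FCER1A, a subunit of the IgE receptor found on human type 2 cells, was at 4.09, 0 and 12.0 CPM, against 21.6, 27.7 and 32.7 CPM (-2.55 ± 0.51, adjusted p = 0.011). IRF4, which type 2 cells depend on, had 6.13, 2.34 and 0 CPM in XCR1/CLEC9A cells, against 5.89, 14.0 and 10.3 CPM in the other FLT3-selected cells, and did not pass (adjusted p = 0.19).

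**Figure D2:**
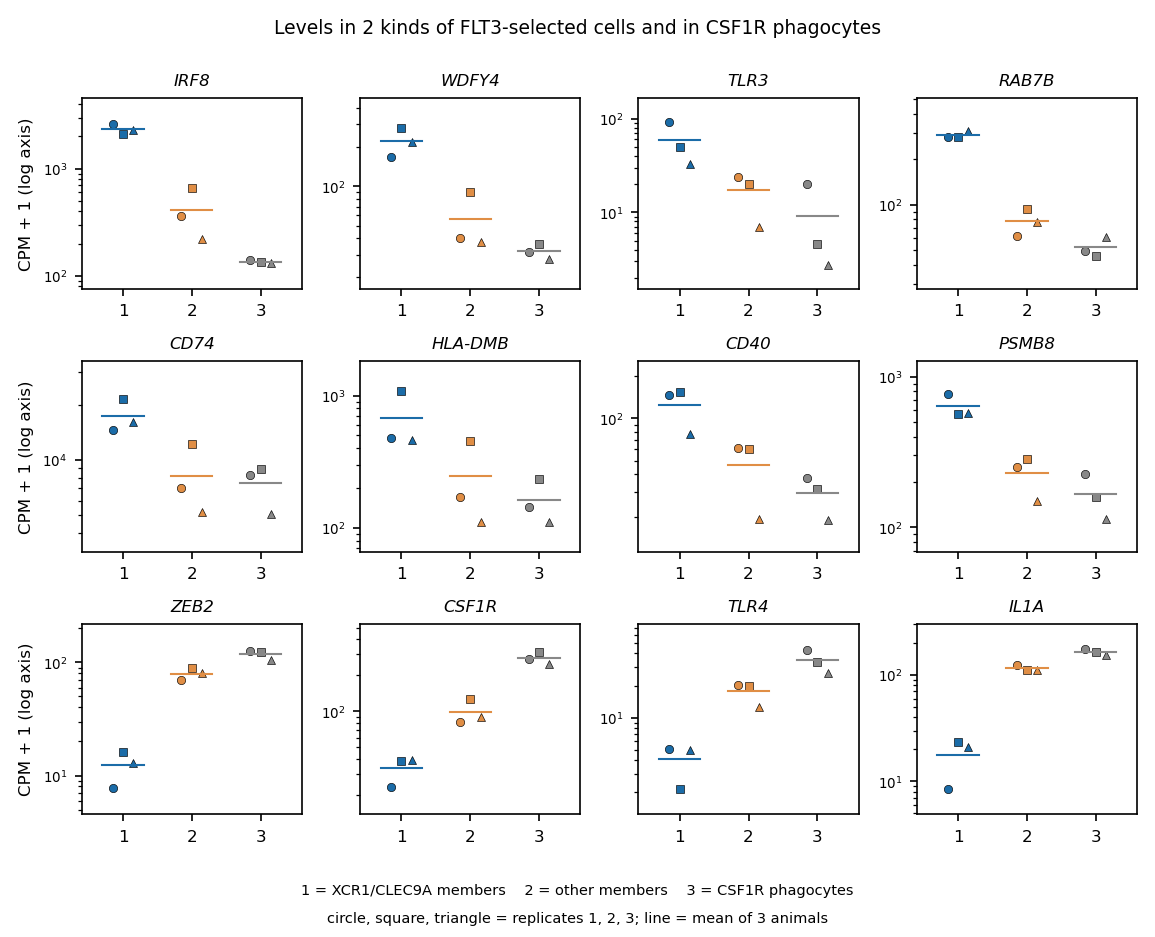
Level of 12 genes (vertical axes, CPM + 1 on a log scale) in XCR1/CLEC9A cells (1), the other FLT3-selected cells (2) and CSF1R phagocytes (3), with 1 point per animal and a line at the mean. IRF8 stood at 2109 to 2607 CPM in XCR1/CLEC9A cells, 221 to 663 CPM in the other FLT3-selected cells and 130 to 139 CPM in phagocytes, and ZEB2 ran the other way.

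Antigen presentation genes were higher in the XCR1/CLEC9A cells. Of 14 MHC class II pathway genes tested, 8 were higher and 1 lower (median log2 fold change 0.94). The chaperone CD74 had 14530, 21480 and 16150 CPM, against 7068, 12240 and 5210 CPM in the other FLT3-selected cells (1.19 ± 0.19, edgeR adjusted p = 0.0042). HLA-DMB, which loads peptide onto class II, had 474, 1086 and 457 CPM, against 171, 452 and 110 CPM (1.61 ± 0.17, adjusted p = 0.00085). Both genes were highest in replicate 2, in either kind of cell, and the rise was seen in every animal. HLA-DPA1 (1.17 ± 0.18) and the class II modulator HLA-DOB (1.54 ± 0.23) were also higher (edgeR adjusted p = 0.004 and 0.003), while the endosomal protease LGMN was lower (-0.82 ± 0.21, adjusted p = 0.027). On the class I side, 4 of 10 genes were higher and 1 lower. The immunoproteasome subunits PSMB8 (1.53 ± 0.18) and PSMB9 (1.31 ± 0.17), the peptide transporter TAP1 (1.29 ± 0.15) and NLRC5, an activator of class I genes (2.04 ± 0.39), were higher, with edgeR adjusted p between 0.0011 and 0.0089. The oxidase subunit CYBB was the gene that was lower (-1.5 ± 0.21, adjusted p = 0.0026).

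The class II count depended on which cells were compared. Without cells that held UMIs of B, epithelial, stromal or granulocyte genes it was 1 higher and 1 lower of 13 tested (median 0.40), and with cells matched on total UMIs 3 higher and none lower of 11 (median 0.41). Over all genes, the first setting called 292 higher and 411 lower of 7411, and the second 301 higher and 359 lower of 6686. CD74 was then at log2 fold changes of 0.58 (edgeR adjusted p = 0.055) and 0.41 (adjusted p = 0.013). The type 1 list gave 6 of 8 and 5 of 7 genes higher in those settings. IRF8 was at 1.99 and 1.73 there, with edgeR adjusted p of 0.0084 and 0.004.

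Costimulatory genes split. CD40, the receptor through which helper T cells act on dendritic cells, had 144, 152 and 75.8 CPM in XCR1/CLEC9A cells, against 60.0, 59.3 and 18.4 CPM in the other FLT3-selected cells (1.5 ± 0.18, edgeR adjusted p = 0.0013). CD86, a ligand of CD28 (0.89 ± 0.12), and CD83, a maturation marker from the mature list (1.21 ± 0.13), were higher too, with edgeR adjusted p of 0.002 and 0.00093. Once cells were paired for total UMIs, none of CD40, CD86 and CD83 passed, and their log2 fold changes were 0.60, 0.24 and 0.40. CD70, the ligand of CD27 on T cells, had 7.49, 14.0 and 3.99 CPM, against 63.1, 53.8 and 26.7 CPM (-2.54 ± 0.29, adjusted p = 0.0011). CD276, an immune checkpoint ligand, was also lower (-2.33 ± 0.42, adjusted p = 0.0071). Of 7 costimulation and checkpoint genes tested, 2 were higher (CD40 and CD86) and 3 lower (median -0.03).

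Cytokine genes were mostly lower: 8 of 11 tested were lower and 2 higher in the XCR1/CLEC9A cells (median log2 fold change -0.97). The interleukin gene IL1A had 7.49, 22.2 and 19.9 CPM, against 123, 110 and 110 CPM (-2.93 ± 0.31, edgeR adjusted p = 0.00092). The groups were far apart in every animal. TNF had 134, 246 and 261 CPM, against 370, 493 and 464 CPM (-1.07 ± 0.15, adjusted p = 0.0026), and IL23A, the specific subunit of interleukin 23, was lower as well (-1.59 ± 0.20, adjusted p = 0.0015). IL15, which sustains CD8 T and NK cells, was higher at 18.4, 16.4 and 3.99 CPM, against 4.77, 6.15 and 1.67 CPM (1.65 ± 0.33, adjusted p = 0.011). The level in replicate 3 was below 2 of the 3 values of the other cells. With cells matched on UMIs the list gave 6 lower and none higher of 9, beside 359 lower of all 6686 genes tested. Without replicate 1 the list gave 3 lower and none higher of 11, beside 237 lower of all 9119 genes.

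Of 11 pattern recognition genes tested, 4 were higher and 3 lower in the XCR1/CLEC9A cells (median 0.37). TLR9, which senses unmethylated DNA in endosomes, had 229, 198 and 142 CPM, against 82.8, 100 and 49.8 CPM in the other FLT3-selected cells (1.33 ± 0.14, edgeR adjusted p = 0.00099). TLR4, the receptor of bacterial lipopolysaccharide, had 4.09, 1.17 and 3.99 CPM, against 19.4, 19.0 and 11.7 CPM (-2.46 ± 0.43, adjusted p = 0.006). STING1, the adaptor of cytosolic DNA sensing, was lower (-1.67 ± 0.24, adjusted p = 0.0028). The interferon-response list moved in no single direction, with 2 higher and 2 lower of 11 tested (median 0.08). IFIT2, an interferon-induced gene, was among those lower (-1.53 ± 0.23, edgeR adjusted p = 0.0034). None of 13 cell-cycle genes passed, but 7 of 11 were higher with cells matched on UMIs (median 0.88), beside 301 of all 6686 genes tested there.

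**Figure D3:**
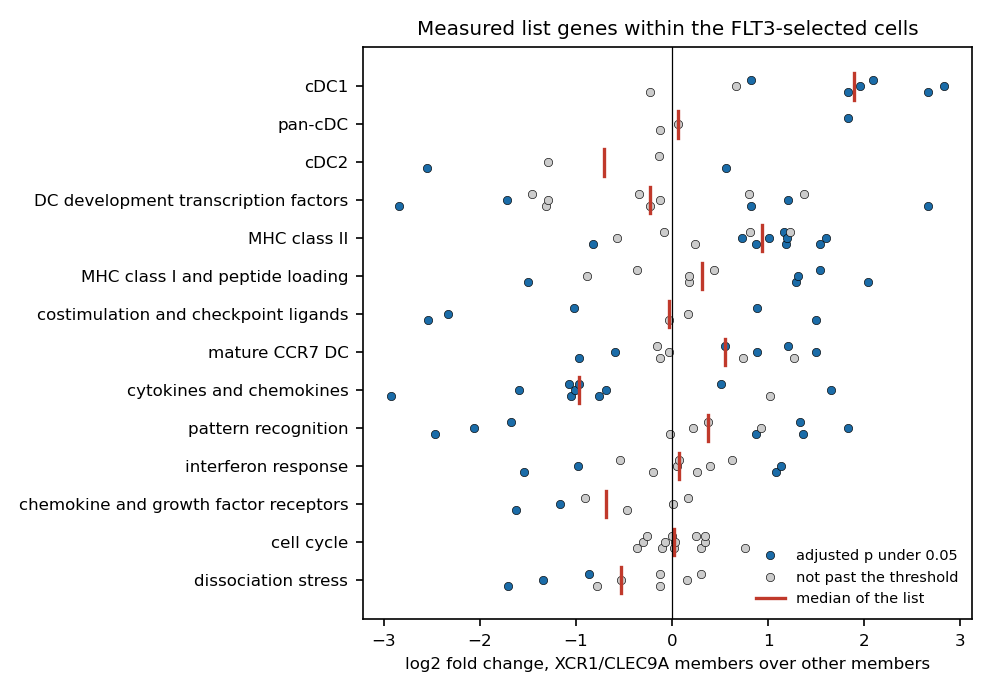
Log2 fold change of XCR1/CLEC9A cells over the other FLT3-selected cells (horizontal axis) for every tested gene of 14 lists, coloured where the edgeR adjusted p was under 0.05, with a bar at each list's median. The type 1 list had a median of 1.89 and the cytokine list of -0.97.

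Genes outside the lists that were higher in every animal included LAG3, ART3 and CLDN7. LAG3, known on T cells as a receptor that binds MHC class II, had 534, 639 and 359 CPM in XCR1/CLEC9A cells, against 98.2, 189 and 52.8 CPM in the other FLT3-selected cells (2.32 ± 0.19, edgeR adjusted p = 0.00055). ART3, a member of the ADP-ribosyltransferase family, had 243, 316 and 73.8 CPM, against 38.4, 75.7 and 7.01 CPM (2.56 ± 0.22, adjusted p = 0.00055). The tight-junction gene CLDN7 (2.99 ± 0.19) and the cytoskeletal adaptor PSTPIP1 (2.48 ± 0.26) were higher, with edgeR adjusted p of 0.00045 and 0.00088. CXCL11, a chemokine that draws CXCR3-bearing T cells, had 544, 440 and 142 CPM, against 88.7, 242 and 5.68 CPM (2.33 ± 0.52, adjusted p = 0.016), and its values in replicate 3 were the lowest of either kind. Genes that were much lower included stromal ones, among them the matrix protease MMP3 (-5.45 ± 0.24), smooth-muscle actin ACTA2 (-4.22 ± 0.34) and TAGLN (-3.38 ± 0.31), with edgeR adjusted p between 0.00012 and 0.00069. They move with the fibroblast markers given above. Without cells that held other lineages, TAGLN was at -0.17.

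A stricter form of the split, set among the tests planned for these cells, compared the 760 cells with CCR7 or FSCN1 and neither XCR1 nor CLEC9A with the 111 cells with XCR1 or CLEC9A and neither CCR7 nor FSCN1. It called 997 genes higher (11.5%) and 746 lower (8.57%) of 8705, or 20% in all. IRF8 had 350, 653 and 207 CPM in the CCR7/FSCN1 cells, against 2632, 2751 and 2385 CPM in the XCR1/CLEC9A cells (-2.82 ± 0.20, edgeR adjusted p = 6.1e-10). ZEB2 was higher in the CCR7/FSCN1 cells (2.99 ± 0.37, adjusted p = 2.9e-06) and CD74 lower (-1.38 ± 0.15, adjusted p = 3.8e-07). Of 11 genes of the mature list tested, 1 was higher and 4 were lower in the CCR7/FSCN1 cells (median -0.64, against 0.08 over all genes tested). With cells matched on UMIs the count was 128 of only 2403 genes tested, and it was 524 of 6564 without cells that held other lineages.

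The 113 cells with CCR7 and neither XCR1 nor CLEC9A differed from the XCR1/CLEC9A cells without CCR7 in 354 genes higher (6.54%) and 370 lower (6.84%) of 5410, or 13.4% in all. CCL22, a chemokine of mature dendritic cells, had 391, 255 and 173 CPM in the CCR7 cells, against 17.7, 14.0 and 8.16 CPM in the XCR1/CLEC9A cells (4.5 ± 0.24, edgeR adjusted p = 1.3e-06). That gap was seen in all 3 animals. RELB, an NF-kB subunit of maturation, had 219, 126 and 76.0 CPM, against 54.6, 52.7 and 36.7 CPM (1.68 ± 0.24, adjusted p = 0.00074). BIRC3, an NF-kB target, was also higher (1.78 ± 0.21, adjusted p = 0.00024). CCL22, RELB and BIRC3 were the 3 genes called among 8 tested of the mature list (median 0.44, against 0.01 over all genes tested). Of 9 cytokine genes 6 were higher with none lower (median 1.08), and of 7 type 1 genes 5 were lower with none higher (median -1.75). IRF4 had 21.7, 30.7 and 31.4 CPM, against 4.25, 2.34 and 0 CPM (3.37 ± 0.59, adjusted p = 0.003), and ZEB2 63.0, 111 and 65.5 CPM, against 4.96, 15.2 and 12.2 CPM (3.14 ± 0.33, adjusted p = 0.00015). IRF8 was lower at 174, 421 and 157 CPM, against 2677, 2109 and 2276 CPM (-3.18 ± 0.29, adjusted p = 0.0001). The 8 measured macrophage markers summed to 1490, 1851 and 1215 CPM in the CCR7 cells, against 518 to 673 CPM in all XCR1/CLEC9A cells. MRC1 was seen in 55.8% of the CCR7 cells and 33.7% of all XCR1/CLEC9A cells. CCR7 cells of replicate 1 carried 17040 CPM of epithelial markers, and those of replicate 3 carried 91950 CPM of the immunoglobulin gene IGKC. Genes called were 677 of 5650 without replicate 1, 892 of 6556 without replicate 3 and 250 of 3542 without cells that held other lineages. CCL22, RELB, BIRC3, ZEB2 and IRF8 passed in the same direction in each of these settings, with CCL22 at 4.38, 4.47 and 5.20. Without replicate 2, the animal with 46 of the CCR7 cells, the count was 209 of 4775 and IRF4 did not pass (adjusted p = 0.07).

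The CCL17-high cells, 74, 75 and 102 by animal, are left out by the rule, and the FLT3-selected cells were lower than these in most maturation genes. Of 9094 genes tested, 367 (4.04%) were higher and 284 (3.12%) lower in the FLT3-selected cells, or 7.16% in all. Without cells that held other lineages 385 of 7271 genes were called. In the mature list 9 of 12 were lower and none higher (median log2 fold change -1.36, against 0.01 over all genes). CCL17 is itself on that list and its level chose both sides, so the direction of the list is not independent of the choice. CCL22 had 48.5, 35.8 and 28.9 CPM in FLT3-selected cells, against 911, 812 and 417 CPM in CCL17-high cells (-4.33 ± 0.19, edgeR adjusted p = 4.2e-06). CD274, the ligand of PD-1, had 18.5, 19.2 and 6.87 CPM, against 125, 58.0 and 24 CPM (-2.22 ± 0.29, adjusted p = 0.0017). RELB had 67.2, 63.5 and 36.3 CPM, against 219, 186 and 97.2 CPM (-1.69 ± 0.17, adjusted p = 0.00047). None of these genes' groups overlapped. CD207, or langerin, a receptor of Langerhans cells, was lower (-4.62 ± 0.45, adjusted p = 0.00031), as were IL10 (-2.40 ± 0.24, adjusted p = 0.00037) and IL1B (-1.78 ± 0.21, adjusted p = 0.001). IRF4 was lower too (-2.0 ± 0.40, adjusted p = 0.016). With cells matched on UMIs 5 of 9 mature genes were lower, beside 132 of all 5814 genes tested.

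**Figure D4:**
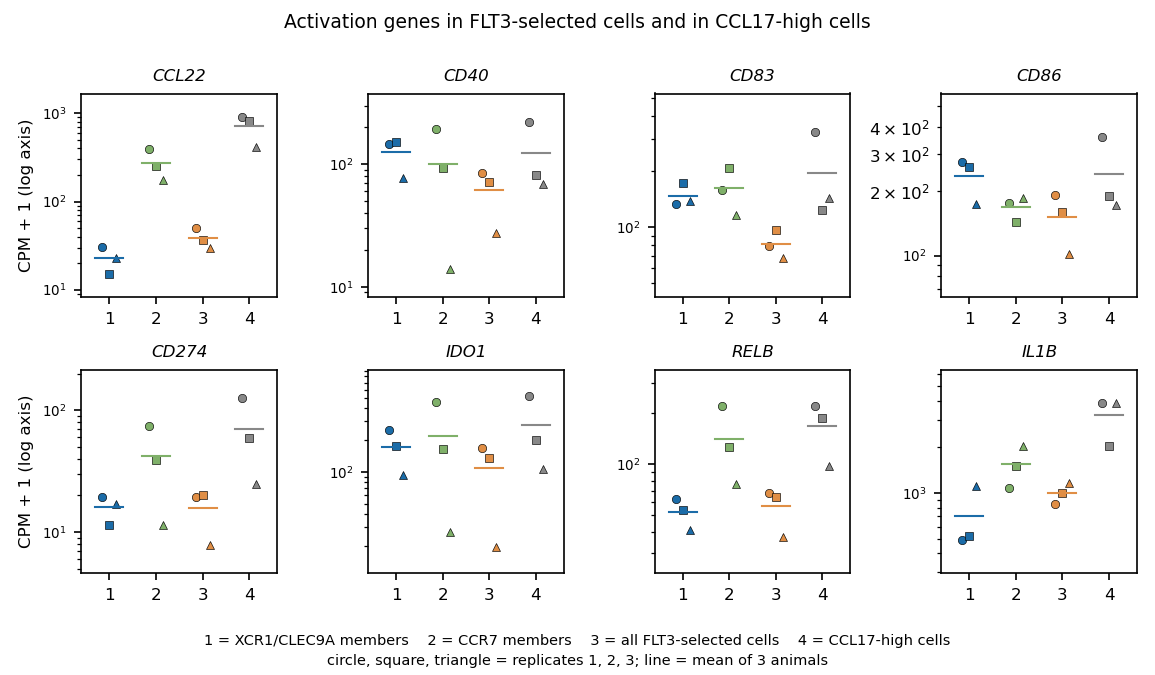
Level of 8 maturation and inflammation genes (vertical axes, CPM + 1 on a log scale) in XCR1/CLEC9A cells (1), CCR7 cells (2), all FLT3-selected cells (3) and CCL17-high cells (4), with 1 point per animal and a line at the mean. CCL22 was at 28.9 to 48.5 CPM in all FLT3-selected cells, 173 to 391 CPM in the CCR7 cells and 417 to 911 CPM in CCL17-high cells.

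Of 7 type 1 genes tested against the CCL17-high cells, 3 were higher and none lower (median 0.73). The rule admits cells by XCR1 and CLEC9A, which are on that list, so its direction is not independent of the rule. IRF8 was at 1013, 848 and 518 CPM in FLT3-selected cells, against 234, 165 and 132 CPM (2.02 ± 0.17, edgeR adjusted p = 0.00015). WDFY4 was higher by less (0.96 ± 0.21, adjusted p = 0.021) and did not pass without replicate 2 (adjusted p = 0.066). CD83 (-1.31 ± 0.28, edgeR adjusted p = 0.021) and CD74 (-0.82 ± 0.19, adjusted p = 0.031) were lower. Neither passed in cells of matched UMI totals, where CD74 was at -0.09. Among the highest genes were the keratin KRT14, at 99.5, 518 and 493 CPM against 10.4, 42.0 and 22.6 CPM (3.77 ± 0.25, adjusted p = 9.3e-05), and TAGLN (3.03 ± 0.35, adjusted p = 0.00091). Without cells that held other lineages KRT14 was at 0.06 (adjusted p = 0.96) and TAGLN at -0.47 (adjusted p = 0.63).

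CSF1R phagocytes were chosen in mirror image, with no FLT3 UMI, CSF1R seen and at least 1 more macrophage gene, under the same upper limits (1000, 1643 and 831 cells by animal). The 3 comparisons with them share these cells. FLT3 and macrophage genes chose the sides, so the direction of other dendritic and macrophage genes is not independent of the choice. XCR1/CLEC9A cells differed from them in 1521 genes higher (13.9%) and 1788 lower (16.3%) of 10968, or 30.2% in all, and the other FLT3-selected cells in 260 higher (2.23%) and 470 lower (4.04%) of 11648, or 6.27% in all. Without cells that held other lineages the other FLT3-selected cells gave 1386 of 9732 genes. The whole set of FLT3-selected cells gave 678 higher (5.79%) and 842 lower (7.19%) of 11706, or 13.0% in all. It gave 2538 of 9882 genes without cells that held other lineages. The group sizes and the spread differ between these comparisons, and the difference between their counts was not tested.

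IRF8 had 130 to 139 CPM in the phagocytes, and was higher both in XCR1/CLEC9A cells (4.02 ± 0.13, edgeR adjusted p = 5.5e-08) and in the other FLT3-selected cells (1.35 ± 0.26, adjusted p = 0.03). The second call did not pass without replicate 1 (adjusted p = 0.062) or with DESeq2 (adjusted p = 0.065). LAG3 had 23.6, 28.2 and 12.7 CPM in phagocytes and was higher by 4.5 ± 0.14 in XCR1/CLEC9A cells (edgeR adjusted p = 5.5e-08) and by 2.19 ± 0.16 in the other FLT3-selected cells (adjusted p = 0.0019). ART3 (5.64 ± 0.17, adjusted p = 5.5e-08) and PLBD1, a phospholipase-like gene (5.01 ± 0.24, adjusted p = 5.8e-07), were higher in XCR1/CLEC9A cells. RGS1, a regulator of G-protein signalling, had 622, 712 and 551 CPM in the other FLT3-selected cells, against 250, 207 and 276 CPM in phagocytes (1.23 ± 0.15, adjusted p = 0.0077).

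Of 11 interferon-response genes tested, 7 were lower and none higher in the other FLT3-selected cells than in phagocytes (median -0.64, against 0.01 over all genes tested). Among them, IFIT2 had 83.3, 75.2 and 4.68 CPM, against 290, 134 and 18.7 CPM (-1.53 ± 0.21, edgeR adjusted p = 0.0097). Both kinds of cell had their lowest IFIT2 in replicate 3. Of single genes from other lists, MAF had 30.3, 64.8 and 23.4 CPM, against 80.1, 136 and 63.1 CPM (-1.41 ± 0.12, edgeR adjusted p = 0.002), and the chemokine receptor CCR1 had 21.0, 39.3 and 20 CPM, against 59.5, 94.5 and 64.1 CPM (-1.59 ± 0.12, adjusted p = 0.0019). ZEB2 was lower by less (-0.71 ± 0.11, adjusted p = 0.015). IGKC was also lower, at 5907, 3502 and 17340 CPM, against 24100, 19180 and 54120 CPM (-2.18 ± 0.16, adjusted p = 0.0019). Of 13 cell-cycle genes 8 were higher with none lower (median 0.58), TOP2A among them (0.98 ± 0.16, adjusted p = 0.018). With cells matched on UMIs that count was 1 of 13, beside 198 higher of all 10043 genes, and TOP2A was at 0.21 (adjusted p = 0.32). In XCR1/CLEC9A cells 8 of 13 cell-cycle genes were higher than in phagocytes, including TOP2A (1.01 ± 0.18, adjusted p = 0.0019) and CDK1 (1.03 ± 0.19, adjusted p = 0.0021).

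Against all other cells of the tumours (23991 cells), the FLT3-selected cells had 1060 genes higher (7.3%) and 1195 lower (8.23%) of 14527, or 15.5% in all. This contrast mixes many kinds of cell. ART3 had 98.2, 106 and 16.6 CPM in FLT3-selected cells, against 7.99, 11.5 and 2.48 CPM (3.13 ± 0.16, edgeR adjusted p = 1.9e-05), and IRF8 1013, 848 and 518 CPM, against 130, 177 and 113 CPM (2.32 ± 0.15, adjusted p = 5e-05). Of the genes that were lower, the cytotoxic granule gene NKG7 had 7.75, 15.9 and 2.00 CPM, against 166, 160 and 26.9 CPM (-3.87 ± 0.20, edgeR adjusted p = 1.9e-05). The CD3 limit places all 6608 T cells among the other cells, so the NKG7 gap is not independent of the rule. Of 8 type 1 genes tested 7 were higher with none lower (median 1.45), and of 14 class II genes 8 were higher and 1 lower (median 0.68). The rule admits cells by XCR1 and CLEC9A, so the direction of the type 1 list is not independent of it. Against phagocytes, 6 of 8 type 1 genes were higher in XCR1/CLEC9A cells, beside 13.9% of all genes tested. In the other FLT3-selected cells 1 of 8 was higher, beside 2.23%.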

How the data were processed

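The 3 libraries, 1 per animal, were made with a 10x 3' kit per the labels. The authors deposited filtered matrices of raw UMI counts per gene and cell; the file headers name Cell Ranger 7.1.0 and the submitters' processing notes 8.0.0. The genome build is not given in the sources used here. Of 23189 features, 11611 have no symbol, and these held 36.8% to 37.8% of UMIs per library. A further labelled edit is not reported here.

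Counts were summed per animal and kind of cell (10 cells or more) and tested with edgeR 4.0.16 (TMM, filterByExpr, quasi-likelihood F-test) in R 4.3.3. P-values were Benjamini-Hochberg adjusted over all genes tested at a threshold of 0.05, after genes of the rules were taken out. CPM are the unscaled sums. SE is the log2 fold change over the root of F. The animal was a block, since both kinds of cell come from the same animals; their deviations from the group means correlated at 0.189 to 0.854. Thinned shares used 2000 UMIs and left out shallower cells (8 of 1053 FLT3-selected cells, 1543 of 6608 T cells and 652 of 1095 B cells). Cells with 2 or more UMIs over CD79A, EPCAM, COL1A1, COL3A1 and CSF3R were taken to hold other lineages, and cells matched on UMIs were paired within 0.2 log2 units. The lineage cut makes no allowance for depth. It moved the median UMIs of the other FLT3-selected cells from 12001, 11251 and 14293 to 8659, 8967 and 12389. Those of XCR1/CLEC9A cells went from 8496, 10777 and 7082 to 7997, 10541 and 6962. The edgeR fit was tested on simulated data.

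The members and gene lists were chosen with earlier results of these data known. Named genes are list members, and the 15 highest and 10 lowest called genes with a symbol that changed the same way in every animal at a mean of 50 CPM or more. The splits by XCR1 or CLEC9A, other than the stricter form, were added after values were seen, as were the counts of list genes under other settings.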

Additional observations from a re-analysis of the deposited data

How the results depend on the processing

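The FLT3-selected share of cells was 3.83% to 4.69% when each animal was left out in turn. FLT3-selected cells that held no other lineage were 2.66% of all cells that passed quality control, with the latter not filtered for lineage. With cells that held other lineages left out of both, the animals had 249, 257 and 163 FLT3-selected cells beside 5176, 5756 and 5075 others. The share was 2.41% with 2 or more FLT3 UMIs, 0.996% with 2 or more further genes and 0.834% after thinning to 2000 UMIs. Of 1120 recomputed values of 91 named gene results, 1021 kept their side of the threshold, 98 lost it and 1 changed sign: TAGLN against the CCL17-high cells, at -0.47 without cells that held other lineages. The cause of these shifts was not tested, and the depth of single cells limits every share.

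Without the animal as a replicate block, genes called were 316 against all other cells, 220 against CCL17-high cells, 174 for all FLT3-selected cells against phagocytes, 1023 for CCR7/FSCN1 against XCR1/CLEC9A cells, 1196 for XCR1/CLEC9A against the other FLT3-selected cells, 2014 for XCR1/CLEC9A cells against phagocytes, 298 for CCR7 against XCR1/CLEC9A cells and 0 for the other FLT3-selected cells against phagocytes. In that last comparison 1081 genes had an unadjusted edgeR p under 0.05 without the block, and DESeq2 with the block called 557.

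The number of genes tested also moved with the setting, so the counts here are not shares. It was lowest, at 2403, for CCR7/FSCN1 against XCR1/CLEC9A cells matched on UMIs. It was highest, at 19828, against all other cells with no filter on low counts. Against all other cells the count was 3609 with 2 or more FLT3 UMIs and 1250 to 1749 with 1 animal left out. Against CCL17-high cells it was 1121 with no filter on low counts, 283 with 2 or more FLT3 UMIs, 385 without cells that held other lineages, 293 with cells matched on UMIs and 411 to 840 with 1 animal left out (411 without replicate 1). For all FLT3-selected cells against phagocytes it was 2719 with 2 or more FLT3 UMIs, 2538 without cells that held other lineages and 951 to 1387 with 1 animal left out (951 without replicate 2).

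For CCR7/FSCN1 against XCR1/CLEC9A cells the count was 910 with DESeq2, 724 with CCR7 alone, 524 without cells that held other lineages, 128 with cells matched on UMIs and 855 to 1664 with 1 animal left out (855 without replicate 1). For XCR1/CLEC9A against the other FLT3-selected cells it was 1222 with DESeq2, 703 without cells that held other lineages, 660 with cells matched on UMIs and 471 to 2001 with 1 animal left out (471 without replicate 1). XCR1/CLEC9A cells against phagocytes gave 1847 with cells matched on UMIs and 1934 to 3457 with 1 animal left out. CCR7 against XCR1/CLEC9A cells gave 303 with DESeq2, 1160 with no filter, 250 without cells that held other lineages, 150 with cells matched on UMIs and 209 to 892 with 1 animal left out. The other FLT3-selected cells against phagocytes gave 1392 with no filter, 1386 without cells that held other lineages, 457 with cells matched on UMIs and 414 to 904 with 1 animal left out (414 without replicate 1). The comparison of CLEC10A cells was not run, since no cell could be chosen.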
